A study of Mus musculus with 27 samples.

Results

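A set of 10 genes that take up, carry, store, digest and export lipid in macrophages were followed through 8 groups of RNA-seq libraries from mouse mammary tumours. The genes are Apoe, Fabp5, Lpl, Cd36, Plin2, Abca1, Abcg1, Lipa, Gpnmb and Acp5. They were chosen by symbol with earlier results of these data known, and all 10 were among the 9996 genes of the deposited table. Every mouse was of the K14cre;Cdh1F/F;Trp53F/F model, in which Cre under the K14 promoter deletes E-cadherin and p53 in epithelial cells, and the tumours arose in the animal's own mammary gland. Macrophages and neutrophils were sorted from these tumours by flow cytometry. The combination group received cisplatin, a DNA-crosslinking drug, plus an antibody that binds CSF-1R, through which CSF-1 and IL-34 keep macrophages alive. The anti-CSF-1R group received that antibody alone, the cisplatin group cisplatin with a control antibody, and the control group the control antibody alone. Macrophages gave 2 combination, 2 anti-CSF-1R, 4 cisplatin and 4 control libraries, and neutrophils gave 4, 4, 3 and 4 in the same order. Tumours of both cisplatin arms were taken 1 day after the last of 2 injections and those of the other arms at a size of 100 mm2, so the effect of cisplatin and of the endpoint cannot be told apart. Ages are not given in the labels, nor whether a library came from 1 mouse or several.

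Macrophages take up lipoproteins and dying cells through scavenger receptors such as CD36, and lipoprotein lipase (Lpl) frees fatty acids from circulating lipoproteins. In the lysosome, acid lipase (Lipa) splits cholesteryl esters. FABP5 carries fatty acids through the cytosol, perilipin 2 (Plin2) coats the lipid droplets in which they are stored, and ABCA1 and ABCG1 export cholesterol to acceptors such as apolipoprotein E (Apoe). The nuclear receptors LXR and PPARgamma are known inducers of the exporters and of fatty acid carriers. Gpnmb, a lysosome-associated glycoprotein, and Acp5, the tartrate-resistant acid phosphatase of osteoclasts, are commonly expressed with these genes in lipid-laden macrophages.

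Among the 6 genes with all 12 macrophage values restored, Fabp5 had the largest fold change in both comparisons with the antibody. It was 9.95-fold higher in combination than in cisplatin macrophages and 5.15-fold higher in anti-CSF-1R than in control macrophages, and no library of the antibody-treated groups overlapped those of the others. Gpnmb and Plin2 were also higher in both comparisons, and the cholesterol exporter gene Abcg1 was higher in the combination. Gpnmb was 28.8-fold higher for combination against cisplatin, but with 1 restored library in each group. Its call for anti-CSF-1R against control depended on how the decimal places were restored. The calls of Plin2 and Abcg1 were lost in most fits that left out 1 library. Apoe, Abca1, Lipa, Acp5, Cd36 and Lpl passed the test in none of the comparisons between treatments. No member passed between treatments in neutrophils, where 0% to 0.164% of all genes did. Neutrophil Fabp5 was also higher in both comparisons with the antibody, without overlap of libraries, but did not pass.

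Values are the authors' normalised read counts, meaning read counts divided by a size factor of the library, after decimal points lost in the deposited table were restored. Of the 270 values of the 10 genes, 180 had a single possible decimal place. Where several places remained, a value was placed by comparison with the other libraries and kept at a probability of at least 0.95. In all, 238 values were kept and 32 were left out because no place reached that probability. The error is the SD over the restored libraries of a group, whose number is n. A fold change is a difference of log2(value + 1), which understates the change of low genes, and was tested with limma, which fits all genes together, at a Benjamini-Hochberg adjusted p of 0.05. Because separate mice are not stated, a p-value here covers just the library-to-library spread, which may be technical. Libraries held 1297225 to 7500103 reads in macrophages and 998805 to 3283150 in neutrophils, and replicates correlated at 0.928 to 0.972 across genes. In such sorted pools a lower value may mean fewer cells of a type or less RNA per cell, which cannot be told apart.

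Promoter sequences are shown for Gpnmb and Plin2, the 2 genes besides Fabp5 that were higher in both comparisons with the antibody. They are from RefSeq on GRCm38.p6 and run from 250 bases before to 50 bases after the annotated start. The windows were searched on both strands for TCACGTG and TCATGTG, boxes bound by MiT/TFE factors of the lysosome, for TGANTCA, the AP-1 motif, for AGGTCA, the half-site of nuclear receptors, and for a direct repeat of that half-site with 4 bases (LXR type) or 1 base (PPAR type) of any kind between. The half-site is contained in both repeats. Capitals mark the matches.
Gpnmb promoter, chr6:49036268-49036567, plus strand: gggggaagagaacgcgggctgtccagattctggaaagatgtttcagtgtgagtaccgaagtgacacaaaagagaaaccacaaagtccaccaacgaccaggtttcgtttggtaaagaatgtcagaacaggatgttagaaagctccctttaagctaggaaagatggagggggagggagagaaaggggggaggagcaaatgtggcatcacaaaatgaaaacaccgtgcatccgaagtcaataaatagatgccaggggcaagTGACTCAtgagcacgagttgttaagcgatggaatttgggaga
Plin2 promoter, chr4:86670010-86670309, minus strand: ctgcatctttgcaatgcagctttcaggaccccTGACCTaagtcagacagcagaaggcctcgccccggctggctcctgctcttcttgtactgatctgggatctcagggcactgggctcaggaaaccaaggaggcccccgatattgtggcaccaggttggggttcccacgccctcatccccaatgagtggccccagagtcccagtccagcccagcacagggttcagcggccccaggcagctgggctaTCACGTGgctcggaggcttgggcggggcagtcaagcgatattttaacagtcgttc
The Gpnmb window held 1 match, TGACTCA at base 9 after the start, and 7.81% of 32851 mouse promoter windows hold this motif. The Plin2 window held TCACGTG at base -5 from the start, present in 3.77% of promoters, and the half-site as TGACCT at base -218, present in 16.3%. Neither window held a repeat of the half-site, which 0.0152% (LXR type) and 0.0396% (PPAR type) of promoters hold. A match of letters is a description and not a measured binding site.

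The marker genes of each sorted population were checked first. Of 14 macrophage markers 13 were in the table, and their summed normalised count was 10628 to 11073 in combination, 11617 to 14254 in anti-CSF-1R, 15046 to 21345 in cisplatin and 13447 to 15711 in control macrophages. No macrophage marker was at the lowest listed value in every library of a group. Of the 13 markers, 1 was lower in anti-CSF-1R than in control macrophages and 4 in combination than in cisplatin macrophages. Cx3cr1, the fractalkine receptor, was lower by -2.28 ± 0.38 and -3.98 ± 0.38 (SE, log2; limma adjusted p = 0.00596 and 9.81e-05) in these 2 comparisons. It passed in all 8 other settings of each, and the first call was lost in 1 of 6 fits that left out 1 library. The other 3 were C1qc, C1qb and Csf1r, the receptor that the antibody binds, at -1.65, -1.14 and -1.02 (log2) for combination against cisplatin. The call of Csf1r was lost in 5 of 6 fits that left out 1 library. Markers of other cells were present as well, and the part of all these markers in the values of the lipid genes was not tested. The 14 measured neutrophil markers summed to 1471 to 1639 in combination, 1152 to 1418 in anti-CSF-1R, 213 to 555 in cisplatin and 436 to 1887 in control macrophages, against 26590 to 109601 in neutrophils. Camp was at the lowest listed value in every combination and anti-CSF-1R library, and Ltf and Cd177 in both anti-CSF-1R libraries. The 5 measured of 8 eosinophil markers summed to 34.4 to 217, 67.2 to 106, 6.66 to 9.94 and 6.75 to 20.9 in the same order of groups, with Ear6 at the lowest listed value in the anti-CSF-1R, cisplatin and control libraries. The 11 measured of 12 mast cell and basophil markers stood at 9968 in anti-CSF-1R replicate 2, against 141 in replicate 1 and 20.6 to 171 in the other macrophage libraries. In the neutrophil libraries these markers summed to 2944 to 9176, the eosinophil markers to 147 to 768 and the macrophage markers to 2082 to 4240. Of the 11 mast cell and basophil markers, 4 were at the lowest listed value in every cisplatin neutrophil library. In combination neutrophils 5 of the 11 were, so these sums came from a part of the list. The part of all these markers in the contrasts between macrophages and neutrophils was not tested. The monocyte markers summed to 1144 to 2744 in combination, 1234 to 1503 in anti-CSF-1R, 707 to 2055 in cisplatin and 511 to 1395 in control macrophages, so these groups overlapped. Of the 7 monocyte genes, 2 were higher in anti-CSF-1R than in control macrophages and 3 in combination than in cisplatin macrophages, among them Ly6c2 in both. The 2 measured of 10 endothelial markers, Kdr and Pecam1, summed to 99.5 to 165 in combination, 104 to 130 in anti-CSF-1R, 6.40 to 55.6 in cisplatin and 26.6 to 95.0 in control macrophages, so both antibody-treated groups lay above their comparison groups. Kdr was higher by 2.44 ± 0.50 (SE, log2, limma adjusted p = 0.0206) for combination against cisplatin, a call lost in 3 of 6 fits that left out 1 library.

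**Figure D1:**
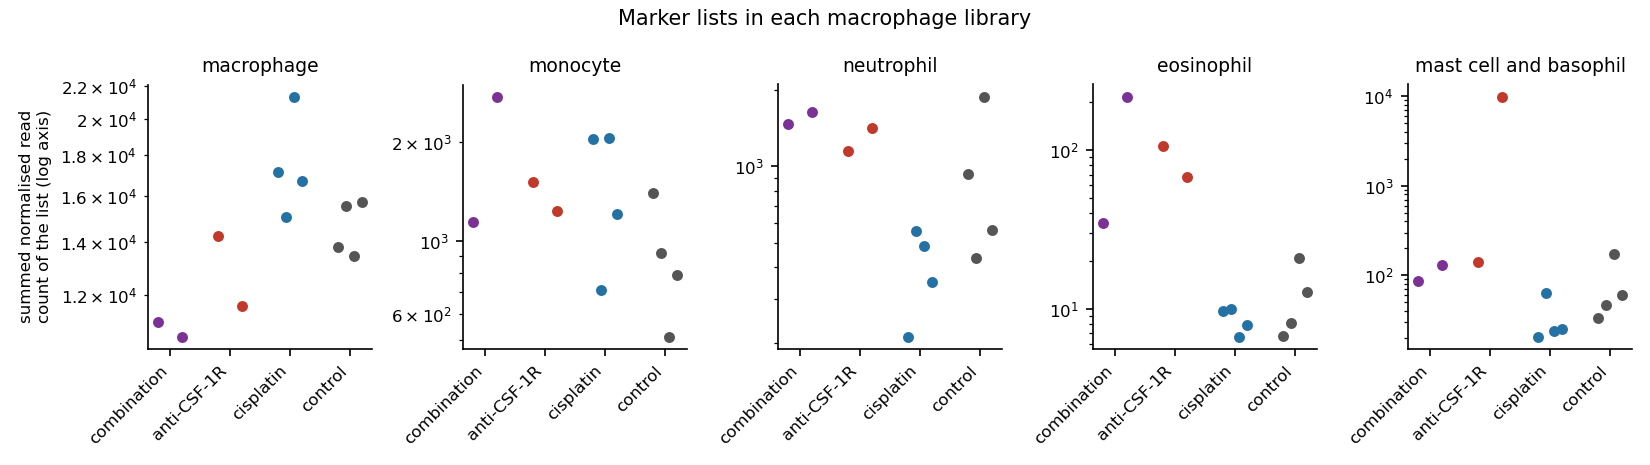
Summed normalised read count (log axis) of 5 marker lists in each of the 12 macrophage libraries, 1 point a library, by treatment. The mast cell list stood at 9968 in 1 anti-CSF-1R library, and the macrophage list was lowest in the combination, at 10628 to 11073.

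Per kilobase of exon, Apoe had the highest level of the 10 genes in macrophages. The length was that of all annotated exons of a gene together, 3567 bases for Fabp5 and 10478 for Lpl. It can exceed the transcript in use, which lowers the level, so ranks between genes are approximate. Its mean level was 6702 normalised counts per kilobase in combination, 9922 in anti-CSF-1R, 4024 in cisplatin and 3954 in control macrophages. Plin2 had rank 2 or 3 of the 10 in each macrophage group, at 448 in combination, 350.3 in anti-CSF-1R, 252 in cisplatin and 185 in control. Acp5 had ranks 2 to 4. Fabp5 stood at 237 per kilobase (rank 4) in combination, 265 (rank 5) in anti-CSF-1R, 23.7 (rank 7) in cisplatin and 52.5 (rank 6) in control macrophages. Lpl, Cd36 and Gpnmb were at 2.99 to 13.6 per kilobase in control macrophages, the 3 lowest levels there.

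**Figure D2:**
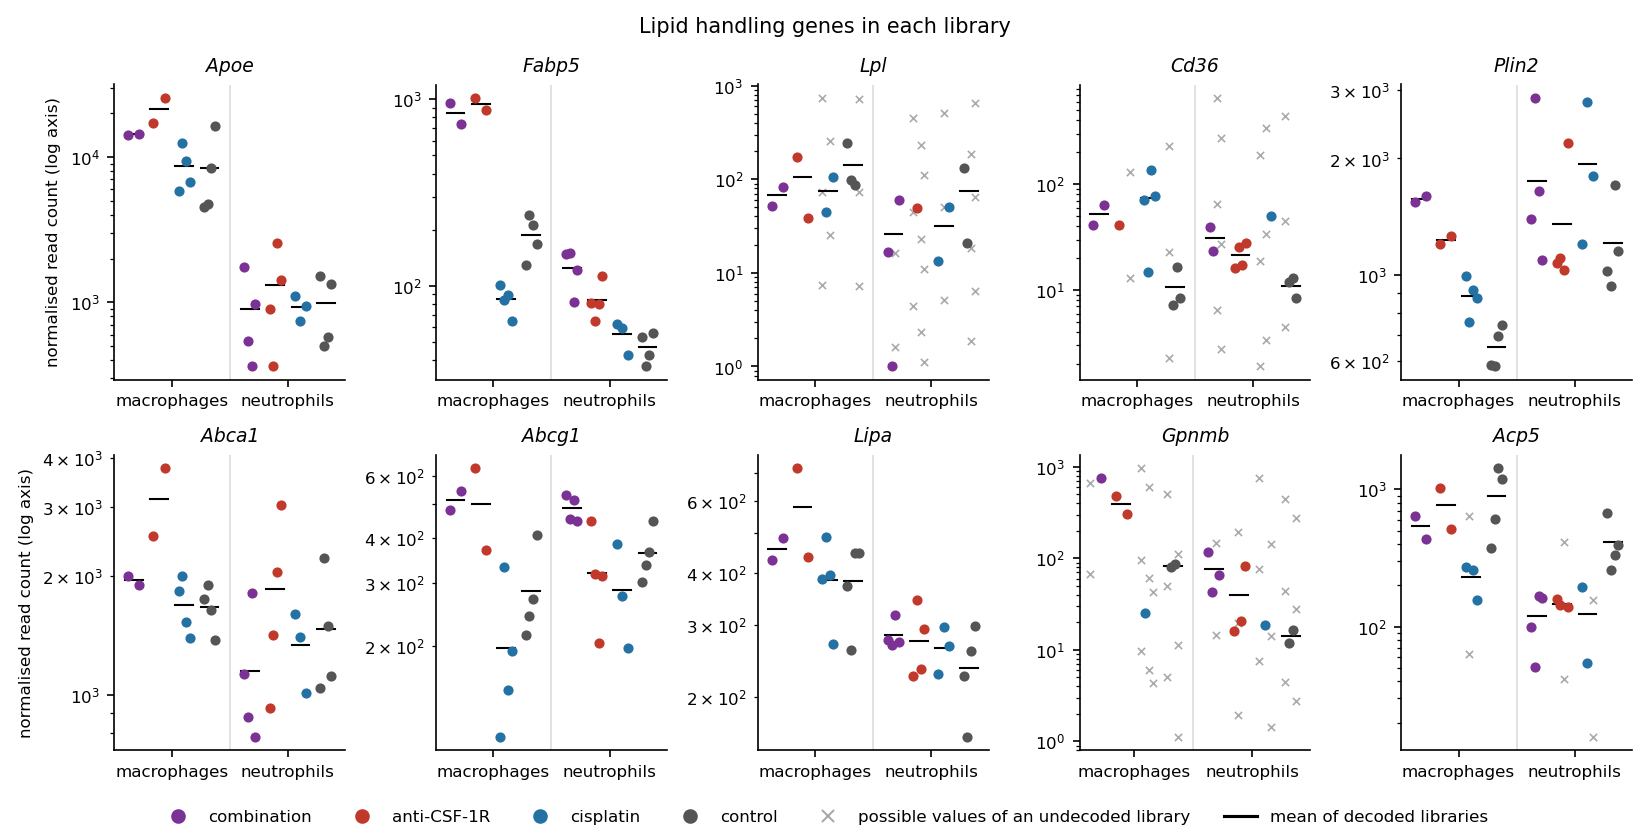
Normalised read count (log axis) of each of the 10 genes in all 27 libraries, macrophages on the left and neutrophils on the right, coloured by treatment. Lines are means of the libraries with a restored value, and grey crosses are the possible values of a library that could not be restored; Fabp5 was between 740 and 1017 in the 4 antibody-treated macrophage libraries, apart from all others.

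Fabp5, the fatty acid carrier (chromosome 3, 10012548 to 10016607, plus strand, GRCm38), stood at 955 and 739.7 in combination, 1017 and 874 in anti-CSF-1R, 100.4, 84.0, 89.1 and 64.8 in cisplatin, and 129, 240.1, 211 and 168 in control macrophages. The 4 antibody-treated libraries lay far above the other 8, and the cisplatin libraries all lay below the control libraries. The group means were 847 ± 152 (SD, n = 2) in combination, 946 ± 101 (SD, n = 2) in anti-CSF-1R, 84.6 ± 14.9 (SD, n = 4) in cisplatin and 187 ± 48.7 (SD, n = 4) in control macrophages. The log2 fold change was 2.37 ± 0.26 (SE) for anti-CSF-1R against control (limma, adjusted p = 0.000462) and 3.31 ± 0.26 (SE) for combination against cisplatin (adjusted p = 1.41e-05). Both remained past the threshold in all 8 other settings tried and with each compared library left out. Without anti-CSF-1R replicate 2, the library with the mast cell markers, the first was 2.47 ± 0.35 (SE, limma adjusted p = 0.0106). Neutrophils, at 36.95 to 149 Fabp5 counts, were below every antibody-treated macrophage library.

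Fabp5 was lower in cisplatin than in control macrophages, by a log2 fold change of -1.12 ± 0.22 (SE, limma adjusted p = 0.0308). That call did not hold in all settings. Of the 4 cisplatin values only the 100.4 of replicate 1 had a single possible decimal place. The others were placed by comparison with the other libraries, each with a probability over 0.95, although whole reads also allowed a value 10 times higher. Combination replicate 1 was placed likewise, and whole reads also allowed 95.5. With the values of a single possible place alone, 1 cisplatin library remained and the log2 fold change against control was -0.85 (limma adjusted p = 0.539). Combination against cisplatin was then 2.87 ± 0.44 (SE, limma adjusted p = 0.0307), with 1 library in each group. The call against control was also lost in 5 of 8 fits that left out 1 library, with limma adjusted p up to 0.119. In the exons of Fabp5, 5.48% of all stretches of 50 bases also occur in 5 other annotated genes, copies such as Fabp5l2, so a part of its reads could have been counted elsewhere.

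**Figure D3:**
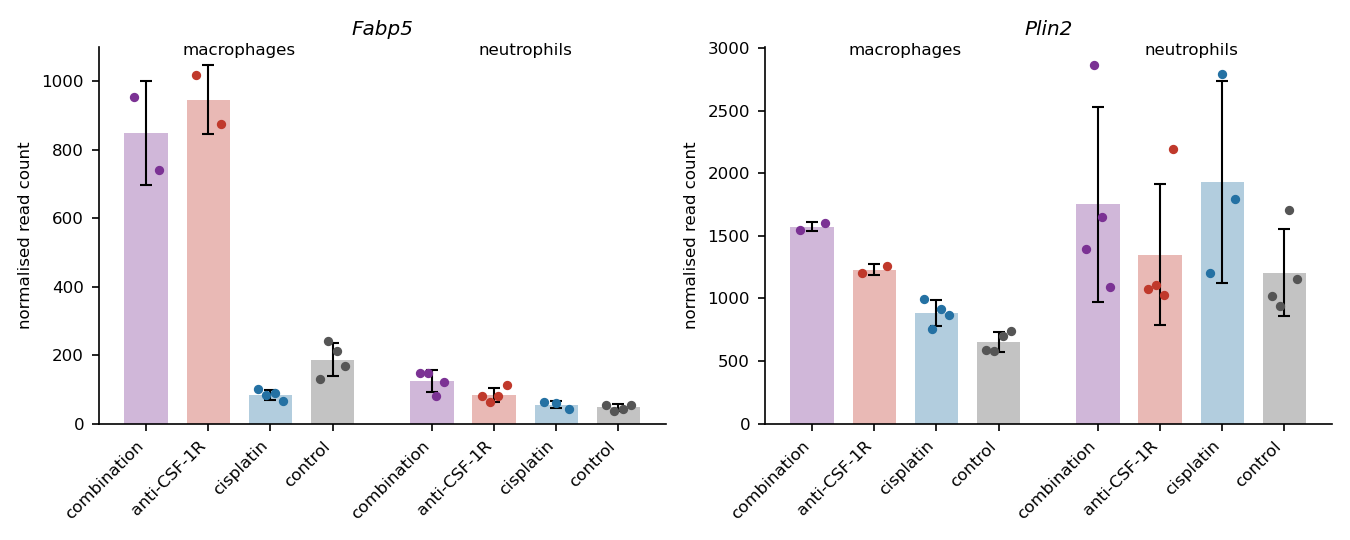
Normalised read count of Fabp5 and Plin2 in each library (points) with the mean (bars) and SD (error bars) of each group, macrophages left of neutrophils. Fabp5 averaged 847 and 946 in the combination and anti-CSF-1R macrophages and at most 187 in any other group, whereas Plin2 averaged 651 to 1575 in the macrophage groups and 1207 to 1932 in the neutrophil groups.

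Plin2, the droplet coat protein (chromosome 4, 86648386 to 86670060, minus strand), followed the order combination, anti-CSF-1R, cisplatin and control in macrophages. It stood at 1547 and 1602 in combination, 1200.2 and 1260 in anti-CSF-1R, 996, 756, 915 and 870.4 in cisplatin, and 585, 581, 697 and 743 in control macrophages. No macrophage group overlapped another. The log2 fold change was 0.92 ± 0.20 (SE) for anti-CSF-1R against control (limma, adjusted p = 0.0237) and 0.84 ± 0.20 (SE) for combination against cisplatin (limma, adjusted p = 0.0344). The neighbours in that order did not pass the test, with 0.36 ± 0.24 (SE) for combination against anti-CSF-1R (limma adjusted p = 0.664) and 0.44 ± 0.17 (SE) for cisplatin against control (limma adjusted p = 0.336). All 27 Plin2 values had a single possible decimal place. Both calls were lost after quantile normalisation (limma, 0.62, adjusted p = 0.0987 and 0.62, adjusted p = 0.0882), and in 4 of 6 and 5 of 6 fits that left out 1 library, with adjusted p up to 0.196 and 0.245.

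Gpnmb (chromosome 6, 49036546 to 49070929, plus strand; promoter shown above) stood at 477 and 306 in anti-CSF-1R macrophages, against 79.5 and 86.1 in the 2 control libraries that could be restored. Both antibody-treated libraries lay above both controls, with a log2 fold change of 2.19 ± 0.31 (SE, limma adjusted p = 0.00915). In the other arm 1 library a group could be restored, 746 in combination and 25.0 in cisplatin macrophages. The log2 fold change between them was 4.85 ± 0.44 (SE, limma adjusted p = 0.00217), with a spread taken from the other groups, so it compares 2 libraries. The other combination library is 670.03 or 67.0, of which 67.0 was the more probable (probability 0.82). The most probable values of the other cisplatin libraries were 4.32 to 9.60, and those of the left-out control libraries were 5.04 and 11.2. Of the 12 macrophage values 6 were left out. When the groups were not used to restore the decimal places, the anti-CSF-1R call was lost (limma adjusted p = 0.226), and the other comparison could not be fitted. With the most probable place for every value the anti-CSF-1R fold change was 3.84 (log2) and no longer passed.

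Of the 2 cholesterol exporters, Abcg1 passed in 1 comparison of treatments and Abca1 in none, and the difference between them was not tested. Abcg1 (chromosome 17, 31057675 to 31117988, plus strand), which passes cholesterol to mature HDL, stood at 480 and 542 in combination, 628 and 370.3 in anti-CSF-1R, 111, 332, 150.01 and 193 in cisplatin, and 214, 243, 269.9 and 409.5 in control macrophages. Both combination libraries lay above all 4 cisplatin libraries, whereas anti-CSF-1R and control libraries overlapped. The log2 fold change was 1.49 ± 0.37 (SE) for combination against cisplatin (limma, adjusted p = 0.0383) and 0.81 ± 0.37 (SE) for anti-CSF-1R against control (limma, adjusted p = 0.224). The first was lost in 5 of 6 fits that left out 1 library, with limma adjusted p up to 0.265.

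Abca1, which loads cholesterol onto lipid-poor apolipoprotein A-I (chromosome 4, 53030787 to 53159895, minus strand), stood at 2006 and 1898 in combination, 2529 and 3756 in anti-CSF-1R, 1840.4, 1998, 1536 and 1394 in cisplatin, and 1752, 1903, 1644 and 1381 in control macrophages. The 2 anti-CSF-1R libraries were the highest of the 12, while the combination libraries lay within or just above the range of the cisplatin libraries. Abca1 missed the threshold for anti-CSF-1R against control, at 0.89 ± 0.24 (SE, log2, limma adjusted p = 0.0534), and for combination against anti-CSF-1R, at -0.66 ± 0.28 (SE, log2, limma adjusted p = 0.496).

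Apoe (chromosome 7, 19696109 to 19699188, minus strand) stood at 14199.7 and 14456 in combination, 16976 and 25451 in anti-CSF-1R, 5846, 12501, 9349 and 6716 in cisplatin, and 4534, 4749.55, 8327 and 16206 in control macrophages. The antibody-treated libraries were high, but control replicate 4 lay above both combination libraries. The log2 fold change was 1.50 ± 0.47 (SE) for anti-CSF-1R against control (limma, adjusted p = 0.0827) and 0.80 ± 0.47 (SE) for combination against cisplatin (limma, adjusted p = 0.355). Without control replicate 4 the first was 1.88 ± 0.37 (SE, limma adjusted p = 0.0107).

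The lysosomal enzyme genes Lipa and Acp5 did not pass the test in any treatment comparison. Lipa (chromosome 19, 34492318 to 34527474, minus strand) stood at 430.5 and 487 in combination, 719.97 and 437 in anti-CSF-1R, 268 to 489 in cisplatin and 260.4 to 449 in control macrophages. Each of the 3 treated groups overlapped the controls. Acp5 (chromosome 9, 22126727 to 22135711, minus strand) stood at 645 and 438 in combination, 1019.8 and 512 in anti-CSF-1R, 273, 257 and 156 in 3 cisplatin libraries, and 372, 612, 1421 and 1199 in control macrophages. The 3 restored cisplatin libraries were the lowest, and replicate 2 was 635 or 63.5, which would be inside or far below the control range. Its log2 fold change was -1.83 ± 0.41 (SE) for cisplatin against control (limma, adjusted p = 0.0834) and 1.26 ± 0.50 (SE) for combination against cisplatin (limma, adjusted p = 0.164).

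The uptake members were low and, with Gpnmb, the least certain. Cd36 (chromosome 5, 17781690 to 17888801, minus strand) stood at 40.8 and 63.2 in combination, 41.5 in the 1 restored anti-CSF-1R library, 70.9, 14.8, 136 and 76.7 in cisplatin, and 7.30, 16.5 and 8.37 in 3 control libraries. Every restored library of the 3 treated groups except cisplatin replicate 2 lay above the restored controls. No comparison passed, with 2.41 ± 0.58 (SE, log2) for cisplatin against control (limma adjusted p = 0.105). Lpl (chromosome 8, 68880491 to 68907448, plus strand) ranged over 38.3 to 241 in the 9 restored macrophage libraries. Its groups overlapped, with means of 67.2 ± 21.5 (SD, n = 2) in combination, 106 ± 95.1 (SD, n = 2) in anti-CSF-1R, 74.5 ± 42.8 (SD, n = 2) in cisplatin and 143 ± 85.7 (SD, n = 3) in control macrophages. The left-out Lpl values were most probably 7.39 and 25.6 in cisplatin and 7.25 in control macrophages (probability 0.72, 0.94 and 0.67). These lie below the restored range, so the cisplatin and control means may be too high.

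**Figure D4:**
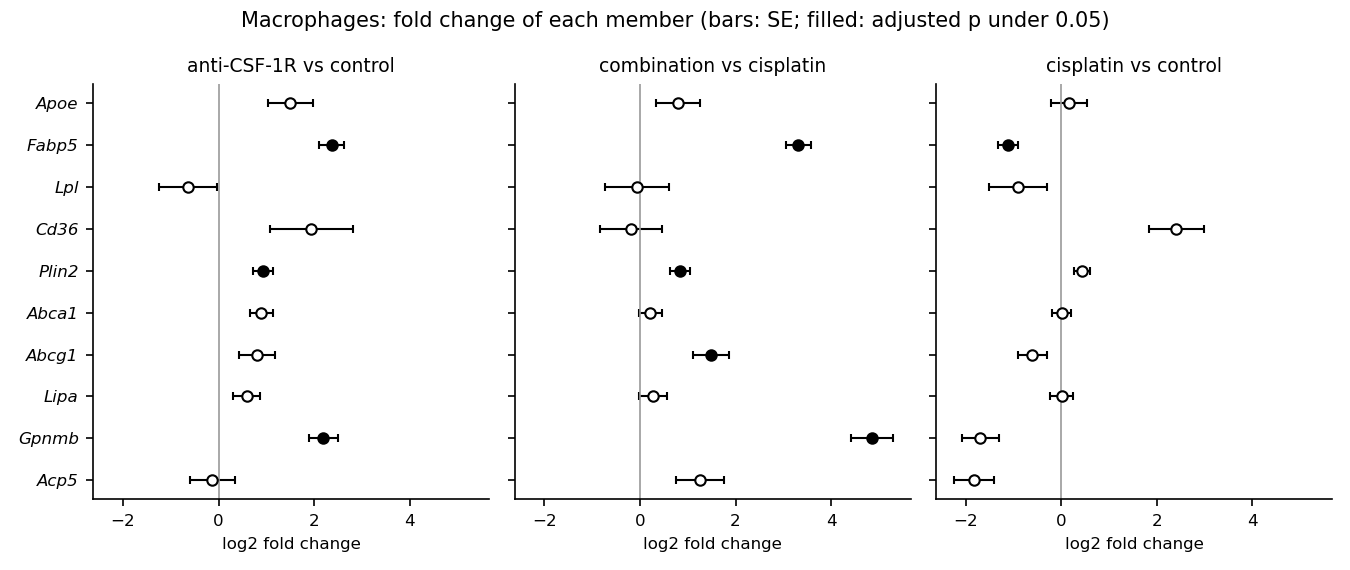
Log2 fold change of each of the 10 genes in macrophages for anti-CSF-1R against control, combination against cisplatin and cisplatin against control; points are limma estimates, bars are SE and filled points passed an adjusted p of 0.05. Fabp5 passed in all 3 comparisons, at 2.37, 3.31 and -1.12.

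Counted together, 3 of the 10 genes passed for anti-CSF-1R against control in macrophages, all higher, where 4.33% of 9104 genes tested passed and 1.97% were higher. For combination against cisplatin 4 of the 10 passed, all higher, where 4.14% of 9091 genes passed and 1.9% were higher. For cisplatin against control 1 of the 10 passed, lower, where 0.5% of 9206 genes passed and 0.239% were lower. The median log2 fold change of the 10 genes was 0.91 for anti-CSF-1R against control, beside 0.03 over all genes, 0.82 for combination against cisplatin, beside -0.01, and -0.30 for cisplatin against control, beside -0.0044. The first pair of comparisons share no libraries, but cisplatin against control shares the control libraries with the first and the cisplatin libraries with the second. Because the 10 genes were chosen with earlier results of these data known, the counts and medians above describe them and do not test them as a set. The anti-CSF-1R and combination groups of macrophages held 2 libraries each, so leaving out 1 leaves a lone library. Fewer of all genes then passed without anti-CSF-1R replicate 2, the library with the mast cell markers, and without either combination replicate. The loss of a replicate and a trait of the library left out cannot be told apart there. The shares over all genes thus depended on having both libraries.

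Adding cisplatin to the antibody was tested by combination against anti-CSF-1R, where none of the 10 genes passed and 0% of 8998 genes did. Unadjusted, Abca1 and Gpnmb had p under 0.05 there, as did 859 of all genes. Fabp5 differed by -0.17 ± 0.31 (SE, log2, limma adjusted p = 0.904). In simulated macrophage libraries the same comparison passed 5.05% of genes given a 2-fold difference and 47.1% of those given a 4-fold difference. A difference between these groups can therefore be missed. The test of whether the antibody effect differed with cisplatin gave 0 of the 10 genes, where 0.0333% of all genes passed, and unadjusted 2 of the 10 and 801 of all genes. On simulated macrophage libraries it passed 1.01% of genes given a 2-fold difference and 28.7% of those given a 4-fold difference. It can therefore miss a difference of the antibody effect. For Fabp5 that difference was 0.95 ± 0.37 (SE, log2, limma adjusted p = 0.492), and for Gpnmb 2.65 ± 0.54 (SE, limma adjusted p = 0.204).

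In neutrophils none of the 10 genes passed in any comparison of treatments. The share of all genes that passed was 0.142% for anti-CSF-1R against control, 0.0987% for cisplatin against control, 0.164% for combination against cisplatin and 0.0548% for combination against anti-CSF-1R, and it was 0% for the test of the antibody effect with and without cisplatin. Unadjusted, 2 or 3 of the 10 had p under 0.05 in each of these 5 tests, as did 882 of 9125, 770 of 9120, 907 of 9119, 989 of 9124 and 565 of 9118 genes in the same order. Fabp5 stood at 148, 149, 81.7 and 121 in combination, 80.4, 64.5, 79.9 and 113 in anti-CSF-1R, 62.6, 59.2 and 42.8 in cisplatin, and 53.3, 36.95, 42.6 and 55.5 in control neutrophils. Both antibody-treated groups lay above their own comparison group without overlap, at 0.82 ± 0.26 (SE, log2, limma adjusted p = 0.279) for anti-CSF-1R against control and 1.15 ± 0.28 (SE, log2, limma adjusted p = 0.112) for combination against cisplatin. Acp5 was 413 ± 179 (SD, n = 4) in control neutrophils and 120.3 to 147 on average in the other 3 groups, with -1.91 ± 0.50 (SE, log2, limma adjusted p = 0.248) for cisplatin against control.

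The difference between the cell types was tested directly. The rise of Fabp5 in combination over cisplatin was larger in macrophages than in neutrophils by 2.16 ± 0.39 (SE, log2, limma adjusted p = 0.0142), the 1 gene of the 10 that passed, where 0.0716% of 9779 genes did. That call was lost without combination replicate 1 (limma adjusted p = 0.141) or replicate 2 (limma adjusted p = 0.0884) of the macrophages. For anti-CSF-1R over control the difference was 1.55 ± 0.37 (SE, log2, limma adjusted p = 0.0646), none of the 10 genes passed and 0.337% of 9800 did. Unadjusted, 2 of the 10 and 949 of all genes had p under 0.05.

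Between macrophages and neutrophils of the same treatment, Apoe and Fabp5 were higher in macrophages in all 4 treatments. Of the 10 genes, 5 differed in combination, 5 in anti-CSF-1R, 3 in cisplatin and 5 in control tumours, where 46.8%, 43%, 56.8% and 51.4% of all genes differed. Apoe averaged 14328 ± 181 (SD, n = 2) in combination macrophages and 903 ± 609 (SD, n = 4) in combination neutrophils, and in control tumours 8454 ± 5453 (SD, n = 4) in the macrophages against 982 ± 517 (SD, n = 4) in the neutrophils. Fabp5 differed by 2.78 in combination, 3.50 in anti-CSF-1R, 0.62 in cisplatin and 1.95 in control tumours (log2), and the 0.62 (limma adjusted p = 0.041) was lost in 3 of 7 other settings and in 5 of 7 fits that left out 1 library, with limma adjusted p up to 0.185. Plin2 was lower in macrophages than in neutrophils of control tumours, at 651 ± 81.5 (SD, n = 4) and 1207 ± 347 (SD, n = 4), and of cisplatin tumours, at 884 ± 100.3 (SD, n = 4) and 1932 ± 805 (SD, n = 3). After quantile normalisation these Plin2 differences were -0.15 and -0.01 (log2) and no longer passed. In combination and anti-CSF-1R tumours the Plin2 difference was -0.06 in both (log2), and under that normalisation it turned to 0.94, which passed the threshold, in combination and to 0.59, which did not, in anti-CSF-1R tumours.

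Other genes of lipid handling were read from 7 lists, also chosen with earlier results of these data known. For anti-CSF-1R against control in macrophages, 1 of 12 tested LXR and lipoprotein genes, 2 of 12 uptake and scavenger receptor genes, 3 of 16 droplet turnover genes, 1 of 17 sterol synthesis genes and 2 of 14 partners of lipid-associated and osteoclast-type macrophages passed. None of 16 fatty acid binding and oxidation genes or of 23 lysosomal lipid genes did. In all, 9 of the 110 tested genes passed (8.18%), where 4.33% of all genes did. Trem2, the lipid-sensing receptor of macrophages, averaged 411 ± 18.1 (SD, n = 2) in anti-CSF-1R and 126 ± 43.5 (SD, n = 4) in control macrophages, a log2 fold change of 1.76 ± 0.29 (SE, limma adjusted p = 0.00596). Lgals3, encoding galectin-3, averaged 1336 ± 62.8 (SD, n = 2) and 609 ± 194 (SD, n = 4) in the same groups (limma adjusted p = 0.0314). Apoc2, the activator of lipoprotein lipase, was higher by 1.88 ± 0.48 and the scavenger receptor gene Olr1 by 2.66 ± 0.65 (SE, log2). Of the droplet genes, the glycerolipid synthesis genes Agpat9 and Lpin2 were higher by 1.85 ± 0.41 and 1.29 ± 0.29, and the acyl-CoA synthetase Acsl5 was lower by -1.35 ± 0.32 (SE, log2), with 1 restored anti-CSF-1R library. Srebf2, the master regulator of sterol synthesis, averaged 21.3 ± 10.6 (SD, n = 2) in anti-CSF-1R and 73.9 ± 29.1 (SD, n = 4) in control macrophages, lower by -1.73 ± 0.39 (SE, log2). Each of the 8 genes named here lost the call in at least 1 of the fits that left out 1 library, where Olr1 went down to 1.54 and Lpin2 to 0.72 (log2, both without anti-CSF-1R replicate 2). Apoc2 and Olr1 each failed to pass in 6 of 8 other settings, and Apoc2 stood at 0.71 with single-place values alone. With decimal places restored without the groups, Acsl5 was at -0.65 and Srebf2 at -1.03 (log2), and neither passed.

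For combination against cisplatin 1 of 12 LXR and lipoprotein genes passed, 1 of 15 fatty acid binding and oxidation genes and 3 of 15 partner genes, with none of 12 uptake, 17 droplet, 23 lysosomal and 17 sterol genes. In all, 5 of the 111 tested genes passed (4.5%), close to the 4.14% of all genes. Nr1h3, which encodes LXRalpha, averaged 57.8 ± 2.4 (SD, n = 2) in combination and 20.5 ± 8.8 (SD, n = 4) in cisplatin macrophages, a log2 fold change of 1.54 ± 0.35 (SE, limma adjusted p = 0.0264). Pparg, which encodes PPARgamma, averaged 30.5 ± 4.0 (SD, n = 2) and 4.40 ± 4.55 (SD, n = 4) in the same groups, with 2.88 ± 0.60 (SE, limma adjusted p = 0.0169). Of the partners, the vacuolar ATPase subunit gene Atp6v0d2 and Lgals3 were higher by 2.17 ± 0.40 and 1.30 ± 0.28, and the osteoclast transcription factor Nfatc1 was lower by -1.39 ± 0.34 (SE, log2). Each of these 5 genes lost the call in 2 to 4 of 6 fits that left out 1 library. For cisplatin against control none of the 112 tested genes of the 7 lists passed, and for combination against anti-CSF-1R none did.

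The genes nearest to Fabp5 over the 8 group means, each centred on its own mean of log2(value + 1), were Gpnmb, Slamf7, Fbxo32, Lrp12 and Ctsl, with root mean square differences of 0.48, 0.48, 0.54, 0.61 and 0.61 among 5123 genes compared. Gpnmb is itself one of the 10. Slamf7 is a surface receptor of immune cells, Fbxo32 a ubiquitin ligase subunit, Lrp12 a transmembrane receptor and Ctsl the lysosomal protease cathepsin L. Of the other members, Apoe stood at rank 221, Acp5 at 455, Lipa at 464, Abca1 at 706, Abcg1 at 912, Lpl at 1741 and Plin2 at 2480, and Cd36 was below the level compared. Restoring the decimal places without the groups shared 3 of the 5 genes and taking the most probable place for every value shared 2, and Gpnmb was in neither.

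**Figure D5:**
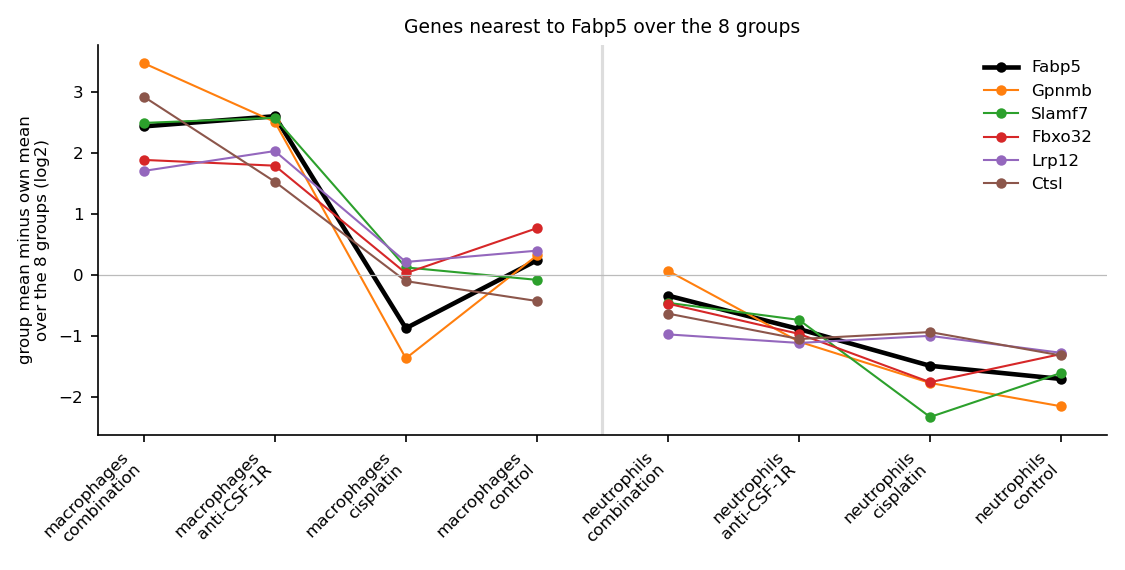
Group mean of log2(value + 1) minus the gene's own mean over the 8 groups, for Fabp5 (black) and the 5 genes nearest to it, macrophages left of neutrophils. All 6 genes were highest in the combination and anti-CSF-1R macrophages, which follows from picking the 5 by these same means. The Gpnmb points of combination macrophages, cisplatin macrophages and cisplatin neutrophils rest on 1 restored library each.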

How the data were processed

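RNA of sorted intratumoral macrophages (12 libraries) and neutrophils (15 libraries) was sequenced after amplification of 10 ng of total RNA, per the labels' protocols. The authors deposited a signal, namely read counts over a size factor of the library, as judged from the values, which step by a constant amount per read in each library. Build mm10 and the tools TopHat2 2.0.11, DESeq2, CASAVA 1.8, R 3.3.1 and Partek 6.6 stand in the submitters' processing notes, with no role stated for any of them. The design was fixed for normalised linear values, and its limma test was kept.

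Of the 269892 deposited values, 91.0% have a form that allows a lost decimal point. Places were restored by requiring whole reads (within 0.02 reads) and, where several places remained (67.1%), by a hierarchical negative binomial model (gene, cell type, group, library). Values with a place probability under 0.95 were left out (4.64%), and 0.111% of those kept were expected to be wrong. The restoring and the test were checked on simulated data. A value of 1 is the lowest listed. No column lacked a sample.

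The test was limma 3.58.1 (R 4.3.3; trended eBayes after lmFit; two-sided) on log2(value + 1) of genes reaching 10 in 2 or more libraries. A single fit held the 4 groups of a cell type, and another all 8 groups for contrasts of macrophages with neutrophils. All 10 members passed this filter in each of the 16 comparisons. Replicate numbers are names only and pair nothing; no pair of replicates correlated above 0.972 across genes. The named list genes are up to 3 per list with the smallest p in a comparison (1 of them is not reported here), and the genes nearest to Fabp5 are the 5 with the smallest root mean square difference. The members and lists were chosen with earlier results of these data known. Alternatives covered the pseudocount, the filter, quantile normalisation, the libraries in the fit, the restoring of decimal places, limma-voom on restored reads and each library left out; 3 alternatives for the likeness to Fabp5 were added after seeing the data. Positions and shared stretches of 50 bases are from GENCODE vM21. Other steps used matplotlib 3.10.9, pandas 2.3.3, scipy 1.17.1 and numpy 2.4.6 in Python 3.11.15.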

Additional observations from a re-analysis of the deposited data

Results flagged for a closer look

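The rise of Fabp5 in combination over cisplatin differed between the cell types, being larger in macrophages than in neutrophils by 2.16 ± 0.39 (SE, log2) in a direct test (limma, adjusted p = 0.0142). In 35 groups of 4 libraries with all values restored, a library far from the other 3 was looked for by Dixon's ratio, the gap to the nearest library over the whole range, against its 95% critical value. Chance alone flags about 1 in 20 such groups. Plin2 in anti-CSF-1R neutrophils had a ratio of 0.904, from replicate 4 at 2192. Lipa in combination neutrophils had a ratio of 0.846, from replicate 3 at 317.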

How the results depend on the processing

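No paired analysis was possible because the labels number no replicates. In the main fits of macrophages, 0.5% of all genes passed for cisplatin against control, 4.14% for combination against cisplatin and 4.33% for anti-CSF-1R against control. Between cell types 43% passed in anti-CSF-1R, 46.8% in combination and 56.8% in cisplatin tumours. For the difference between cell types 0.337% passed for anti-CSF-1R over control and 0.0716% for combination over cisplatin. For cisplatin against control in macrophages, the count of members past the threshold was 0 without a filter, with the compared groups alone in the fit, with decimal places restored without the groups and with single-place values alone, and 0 to 3 with each library left out. For combination against cisplatin in macrophages it was 1 without the groups, 2 with single-place values and 1 to 3 with each library left out. For anti-CSF-1R against control it was 2 to 4 with each library left out. Between cell types it was 3 to 6 in anti-CSF-1R tumours, 3 to 6 in combination tumours and 1 to 4 in cisplatin tumours with each library left out, and 5 in cisplatin tumours after quantile normalisation. For the difference of the anti-CSF-1R effect between cell types it was 1 with a pseudocount of 5 and with the most probable place for every value, and 0 to 1 with each library left out. For the difference of combination over cisplatin it was 0 with the compared groups alone, without the groups and with single-place values, and 0 to 1 with each library left out. Direction turned for Fabp5 in combination against anti-CSF-1R macrophages (0.017 on the log2 scale without combination replicate 2, and -0.35 to 0.02 with each library left out) and for Plin2 between cell types: 0.59 in anti-CSF-1R and 0.94 in combination tumours after quantile normalisation, and -0.16 to 0.20 and -0.25 to 0.21 with each library left out. The cause was not tested. Of 1358 alternative values of the results given, the 3 for the likeness to Fabp5 among them, 1119 were unchanged in direction and side of the threshold. That count leaves out 104 fold changes of the 10 genes that did not pass and are not given. Of their 1715 alternative fits, 92 had the other sign and 15 passed the threshold, with 0 doing both. The turns of direction named above do not include these 92. Quantile normalisation moved the median of all genes between cell types to 0.11 to 0.19 (log2), against 0.10 to 0.13 without it. With 2 libraries in a macrophage group, leaving out 1 leaves a lone library assumed to vary like the other groups. Gpnmb in combination against cisplatin could not be fitted without the groups, with single-place values or without its lone library. At these depths the members limited most are Lpl, Cd36 and Gpnmb, of which 10, 7 and 12 of 27 values were left out.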
